A study of Zea mays with 6 samples.

Results

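The genes for the CLAVATA-type receptors td1, fea2 and fea3 and for the G-protein alpha subunit ct2 were followed in developing anthers of maize (Zea mays). They were chosen by identifier, as Zm00001d014793 (td1), Zm00001d051012 (fea2), Zm00001d040130 (fea3) and Zm00001d027886 (ct2), and all 4 were found among the 46430 genes of the count table. RNA-seq libraries came from anthers labelled S3-S5 stage, from 3 samples of zmrpn1, a ZmRPN1 knockout whose titles carry the word Mutator, the name of a maize transposon family, and the genotype code aa, and from 3 WT samples with the code AA. The series title ties ZmRPN1 to pollen number, and the design compares mutant with wild-type anthers. The site of the mutation, the relation of the WT plants to the mutants and the number of plants behind a sample are not given in the sources used here. P-values therefore measure only the spread between these libraries.

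CLAVATA signalling is a feedback loop in which small secreted CLE peptides are perceived by leucine-rich-repeat receptors at the cell surface, and the signal restrains the stem-cell population of a meristem. In maize, TD1 is a receptor kinase related to Arabidopsis CLAVATA1. FEA2 is a receptor-like protein without a kinase domain, related to Arabidopsis CLAVATA2, and FEA3 is another leucine-rich-repeat receptor-like protein, which responds to the CLE peptide FCP1. CT2 is the alpha subunit of the heterotrimeric G protein and acts with FEA2. Maize mutants of these genes are known for enlarged or fasciated inflorescence meristems, and in Arabidopsis the CLAVATA1-related kinases BAM1 and BAM2 act in the early anther, where they are needed for its wall cell layers.

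The libraries held between 16203290 and 29515176 counts, and each of the 4 genes had between 639 and 3276 counts in every library. Of 23477 genes tested, 12.4% passed the threshold between zmrpn1 and WT, which was an adjusted p under 0.05 by the quasi-likelihood test of edgeR with Benjamini-Hochberg adjustment over all tested genes. The reference gene table pairs no Zm00001d identifier with a symbol. The names were therefore checked by order along the chromosome: in both the count table and the reference assembly td1 lies between the microRNA precursors MIR160b and MIR168a, fea2 between MIR156a and MIR156i, fea3 between MIR159f and MIR169a, and ct2 between MIR167j and MIR164e. This check is coarse, since 212 to 940 rows of the table lie between a pair of precursors. Of 41 symbols of other CLAVATA and G-protein genes 11 matched the reference table, as did 12 of 19 anther, meristem and leaf marker symbols, and 0 of these matches had a paired row in the count table. The tissue label was therefore not checked against markers, and ZmRPN1 itself was not analysed here.

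All 4 genes passed the filter on low counts and differed little between the genotypes. Of the 4, fea3 rose in zmrpn1 at an adjusted p under 0.05 and 0 fell, beside 6.63% of all tested genes that rose and 5.82% that fell. DESeq2 and limma-voom also called fea3 alone among the 4, beside 7.98% of all tested genes with DESeq2 and 12.01% with limma-voom. The unadjusted edgeR p of fea2, the member with a negative value, was 0.00973. The log2 values of td1 and ct2 were positive and that of fea2 was negative, and none of the 3 passed the threshold. The median log2 value of the 4 genes was 0.11, beside 0.00122 over all tested genes, and the median size regardless of sign was 0.156, beside 0.104. Levels are given as CPM, counts scaled to the size of the library. In whole anthers, fewer cells of an expressing type and less RNA per cell cannot be told apart.

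**Figure D1:**
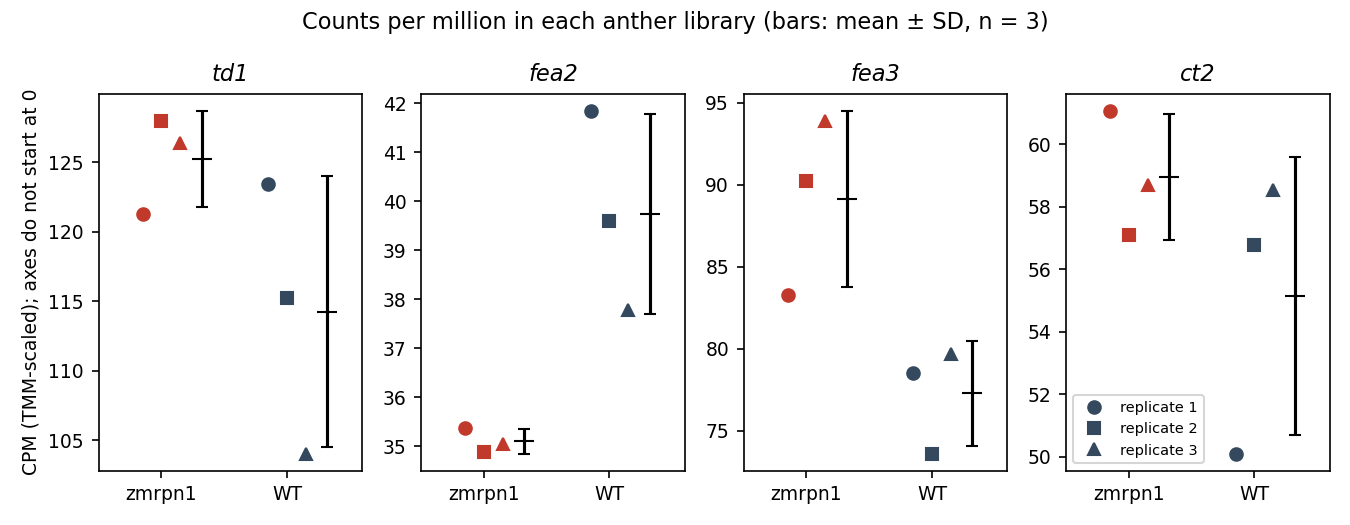
Expression of td1, fea2, fea3 and ct2 in CPM (vertical axes, each with its own range) in the 3 zmrpn1 libraries (red) and the 3 WT libraries (dark blue), with the mean ± SD of each group as a bar. The groups do not overlap for fea2 and fea3, and they overlap for td1 and ct2.

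The receptor kinase gene td1 had 121, 128 and 126 CPM in zmrpn1 replicates 1, 2 and 3, against 123, 115 and 104 CPM in WT replicates 1, 2 and 3. The groups overlapped, because WT replicate 1 lay above zmrpn1 replicate 1. The mean was 125 ± 3.48 CPM in zmrpn1 and 114 ± 9.74 CPM in WT (SD, n = 3 each). The difference was 0.14 ± 0.057 on the log2 scale (± here and below in log2 values is the standard error), and it did not pass the threshold (edgeR adjusted p = 0.13; two-sided exact permutation p = 0.2). Its unadjusted 95% interval ran from 1.36% to 19.0% higher in zmrpn1. The WT libraries were the more spread of the groups, with a coefficient of variation (SD over mean) of 2.78% in zmrpn1 and 8.53% in WT, where counting error alone gives 1.92% in zmrpn1 and 2.04% in WT. The result rested on the WT libraries at the ends of that spread: without WT replicate 1 the log2 value was 0.20 and passed (edgeR adjusted p = 0.0329), and without WT replicate 3 it was 0.068 (edgeR adjusted p = 0.579).

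For fea2, the receptor-like protein gene without a kinase domain, zmrpn1 replicates 1, 2 and 3 gave 35.4, 34.9 and 35.0 CPM, and WT replicates 1, 2 and 3 gave 41.8, 39.6 and 37.8 CPM. Every zmrpn1 library lay below every WT library, with 2.40 CPM between the nearest of them. Of all tested genes, 27.0% had groups that did not overlap, and 13.2% had zmrpn1 below WT. The mean was 35.1 ± 0.251 CPM in zmrpn1 and 39.7 ± 2.04 CPM in WT (SD, n = 3 each). The log2 value was -0.18 ± 0.065, a difference of -11.5% with an unadjusted 95% interval from -19.2% to -3.10%. It did not pass the threshold (edgeR adjusted p = 0.0696), and the two-sided exact permutation p was 0.1, the smallest that 3 against 3 libraries allow. The zmrpn1 libraries agreed more closely than counting alone would usually give, with a coefficient of variation of 0.715% where counting error gives 3.63%. Without WT replicate 3, the WT library nearest to zmrpn1, the log2 value was -0.22 and passed narrowly (edgeR adjusted p = 0.0496), and without WT replicate 1 it was -0.14 (edgeR adjusted p = 0.263). Leaving out any of the other 4 libraries gave log2 values that did not pass.

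The fea3 gene, for the receptor-like protein that responds to FCP1, was the member that passed the threshold. Its level was 83.3, 90.2 and 93.9 CPM in zmrpn1 replicates 1, 2 and 3, against 78.5, 73.6 and 79.7 CPM in WT replicates 1, 2 and 3. All 3 zmrpn1 libraries lay above all 3 WT libraries, as they did in 13.8% of tested genes, and 3.60 CPM parted the nearest of them. The mean was 89.1 ± 5.38 CPM in zmrpn1 and 77.3 ± 3.22 CPM in WT (SD, n = 3 each), a log2 change of 0.20 ± 0.057 (edgeR adjusted p = 0.0113; two-sided exact permutation p = 0.1). In linear terms fea3 was 15.3% higher in zmrpn1, with an unadjusted 95% interval from 6.40% to 24.9%. The call depended on WT replicate 2, the lowest library. Without it the log2 value was 0.17 and no longer passed (edgeR adjusted p = 0.111), while leaving out any other library gave log2 values from 0.16 to 0.25 that passed.

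The G-protein alpha subunit gene ct2 had 61.1, 57.1 and 58.7 CPM in zmrpn1 replicates 1, 2 and 3, against 50.1, 56.8 and 58.5 CPM in WT replicates 1, 2 and 3. The groups overlapped, and WT replicate 1 lay below the other 5 libraries. The mean was 59.0 ± 2.01 CPM in zmrpn1 and 55.1 ± 4.45 CPM in WT (SD, n = 3 each). The log2 value of 0.094 ± 0.062 did not pass the threshold (edgeR adjusted p = 0.392; two-sided exact permutation p = 0.2). The unadjusted 95% interval ran from -2.14% to 16.4%. Without WT replicate 1 the log2 value was 0.031 (edgeR adjusted p = 0.853).

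**Figure D2:**
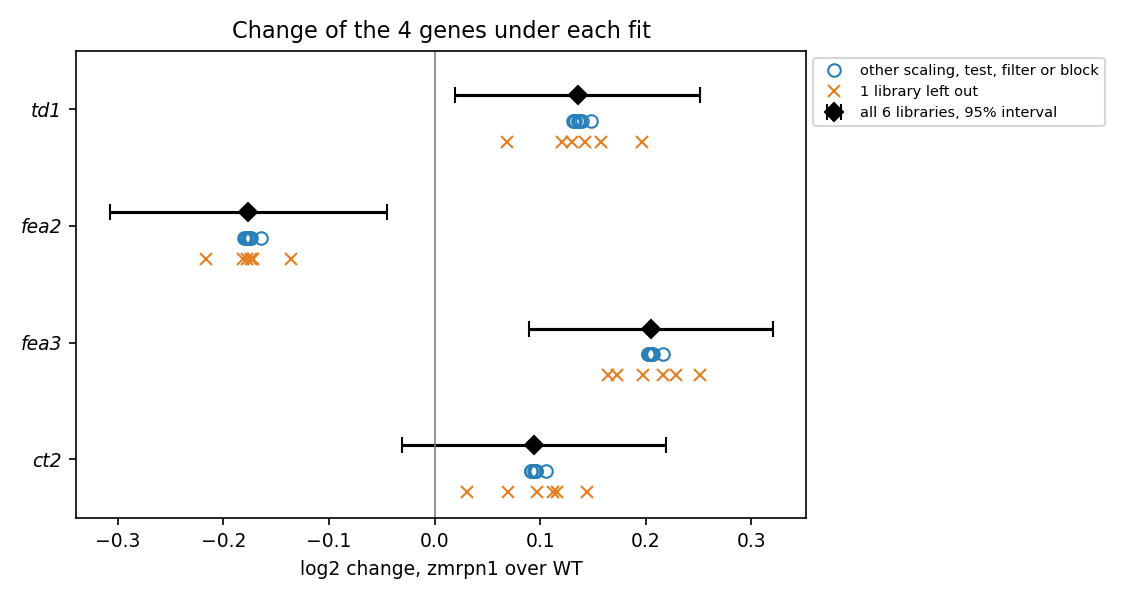
Log2 change of each gene in zmrpn1 over WT (horizontal axis) with all 6 libraries and its unadjusted 95% interval (black), under other scalings, tests, filters or a replicate block (blue circles), and with 1 library left out (orange crosses). Values with all 6 libraries hardly moved, while leaving out 1 library gave 0.068 to 0.20 for td1 and 0.031 to 0.14 for ct2.

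Among all tested genes these differences were of middling size. The tested genes span all count levels above the filter, and genes with counts like those of the members were not compared separately. The log2 change of fea3 was larger, regardless of sign, than that of 72.1% of tested genes, and on the same measure the log2 value of fea2 was larger than that of 67.9%. For td1 and ct2 the shares were 59.0% and 46.5%. The middle 50% of tested genes had log2 values between -0.097 and 0.11, so fea3, fea2 and td1 lay outside that range and ct2 lay inside it. Between the 5% of genes at each end, the range ran from -0.45 to 0.50, and all 4 members lay within it.

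**Figure D3:**
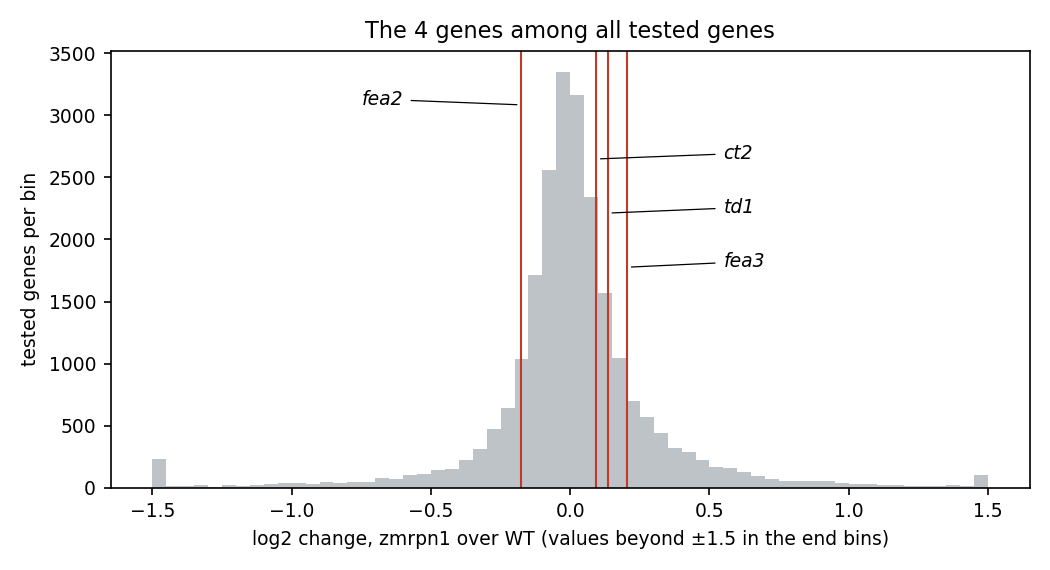
Number of tested genes (vertical axis) by log2 change in zmrpn1 over WT (horizontal axis, bins of 0.05), with the 4 members as red lines. The members lie between -0.18 for fea2 and 0.20 for fea3, inside the bulk of the genes.

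The balance between members was also compared within each library, where the ratio of the counts of a pair of genes does not depend on how libraries are scaled to each other. These ratios describe shifts between genotypes, not which gene is more expressed, because counts were not divided by gene length. The ratio of fea2 to fea3 was 0.425, 0.387 and 0.373 in zmrpn1 replicates 1, 2 and 3, against 0.533, 0.538 and 0.474 in WT replicates 1, 2 and 3. Every zmrpn1 library lay below every WT library, and the mean ratio was 0.395 ± 0.0267 in zmrpn1 and 0.515 ± 0.0355 in WT (SD, n = 3 each), a log2 difference of -0.38. The ratio of td1 to fea2, the kinase receptor gene over the gene without a kinase domain, was 3.43, 3.67 and 3.61 in zmrpn1 libraries, against 2.95, 2.91 and 2.75 in WT libraries. Here zmrpn1 lay above WT throughout, with a log2 difference of 0.31.

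The G-protein gene gave a like picture when set against fea2. The ratio of fea2 to ct2 was 0.579, 0.611 and 0.597 in zmrpn1 libraries, against 0.835, 0.698 and 0.645 in WT libraries, without overlap and with a log2 difference of -0.28. The other 3 pairs, which leave fea2 out, overlapped between genotypes, and their log2 differences were -0.069 for td1 over fea3, 0.036 for td1 over ct2 and 0.11 for fea3 over ct2. The 3 ratios that did not overlap thus share fea2 and are not independent of each other. Such a lack of overlap was common: set against every other tested gene with a count in each library, 46.7% of the ratios of fea2 did not overlap between genotypes, 47.0% of those of fea3, 30.5% of those of td1 and 25.2% of those of ct2. No test was made of these ratios.

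**Figure D4:**
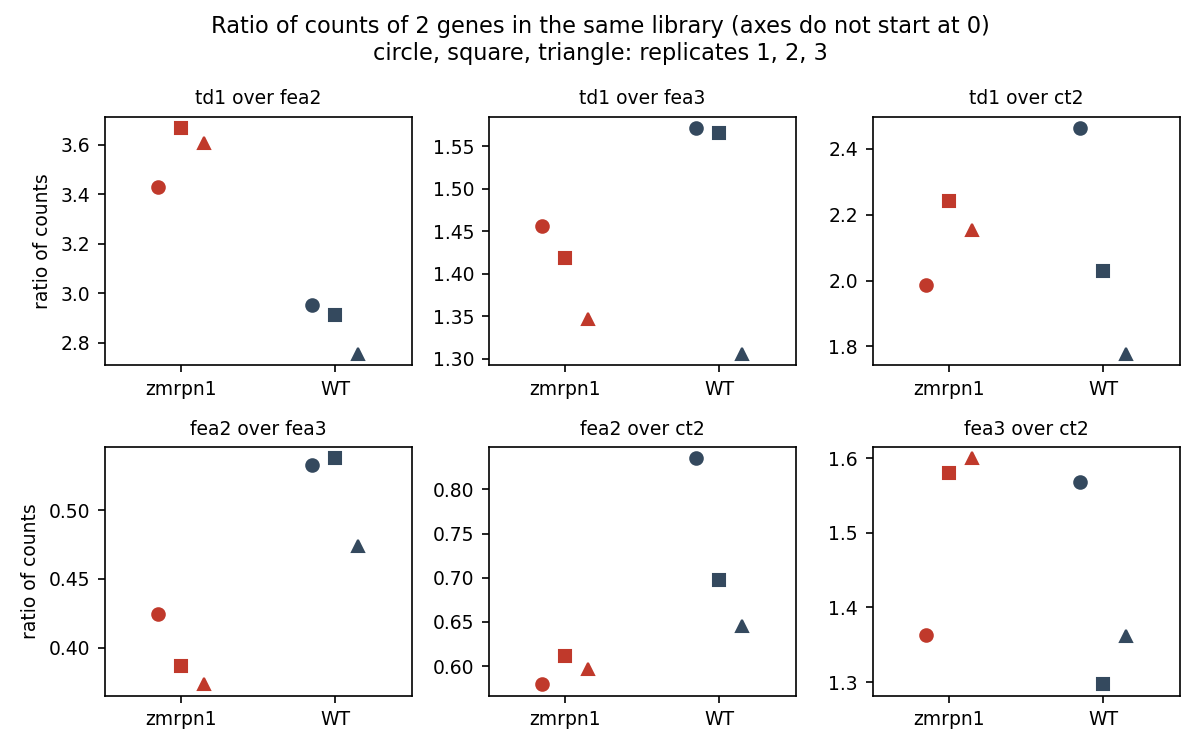
Ratio of the counts of each pair of members in the same library (vertical axes, each with its own range) for the zmrpn1 libraries (red) and the WT libraries (dark blue). The groups do not overlap in the 3 pairs that hold fea2 and overlap in the other 3.

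Likeness of pattern was measured as the root-mean-square difference between log2 CPM profiles over the 6 libraries, each centred on its own mean, among 20025 other tested genes that averaged at least 1 log2 CPM. The most alike gene was Zm00001d006511 for td1, at a distance of 0.0181 log2 units, and Zm00001d040109 for fea2, at 0.0101 log2 units. For fea3 it was Zm00001d048028, at 0.0213 log2 units, and for ct2 it was Zm00001d011835, at 0.0162 log2 units. The files and the reference table give no names for these genes. The expression of Zm00001d040109, the gene nearest to fea2, averaged 21.0 ± 0.269 CPM in zmrpn1 and 24.0 ± 1.07 CPM in WT (SD, n = 3 each), a log2 value of -0.19 that did not pass the threshold (edgeR adjusted p = 0.109). That of Zm00001d048028, the gene nearest to fea3, averaged 12.2 ± 0.635 CPM in zmrpn1 and 10.7 ± 0.530 CPM in WT, a log2 value of 0.19 that did not pass either (edgeR adjusted p = 0.245). Log2 values close to those of the members follow from picking these genes by likeness of profile. Within 0.05 log2 units, a wider limit set after the values were seen, lay 154 genes for td1, 349 for fea2, 108 for fea3 and 345 for ct2. The members themselves varied by only 0.0892 (ct2) to 0.119 (fea3) log2 units around their own means, which is how far a profile with no variation would lie from each of them.

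The surroundings of each member were read from the order of the count table, with 10 tested genes on each side. Of these 80 neighbours 10 were called, or 12.5%, beside 12.4% of all tested genes. Next to td1, 1 of 20 neighbours was called higher in zmrpn1 and 2 were called lower, and both called neighbours of fea2 fell. The 1 called neighbour of fea3 and the 4 called neighbours of ct2 rose. The median log2 value of the neighbours was 0.00998 for td1, -0.051 for fea2, -0.028 for fea3 and 0.057 for ct2.

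**Figure D5:**
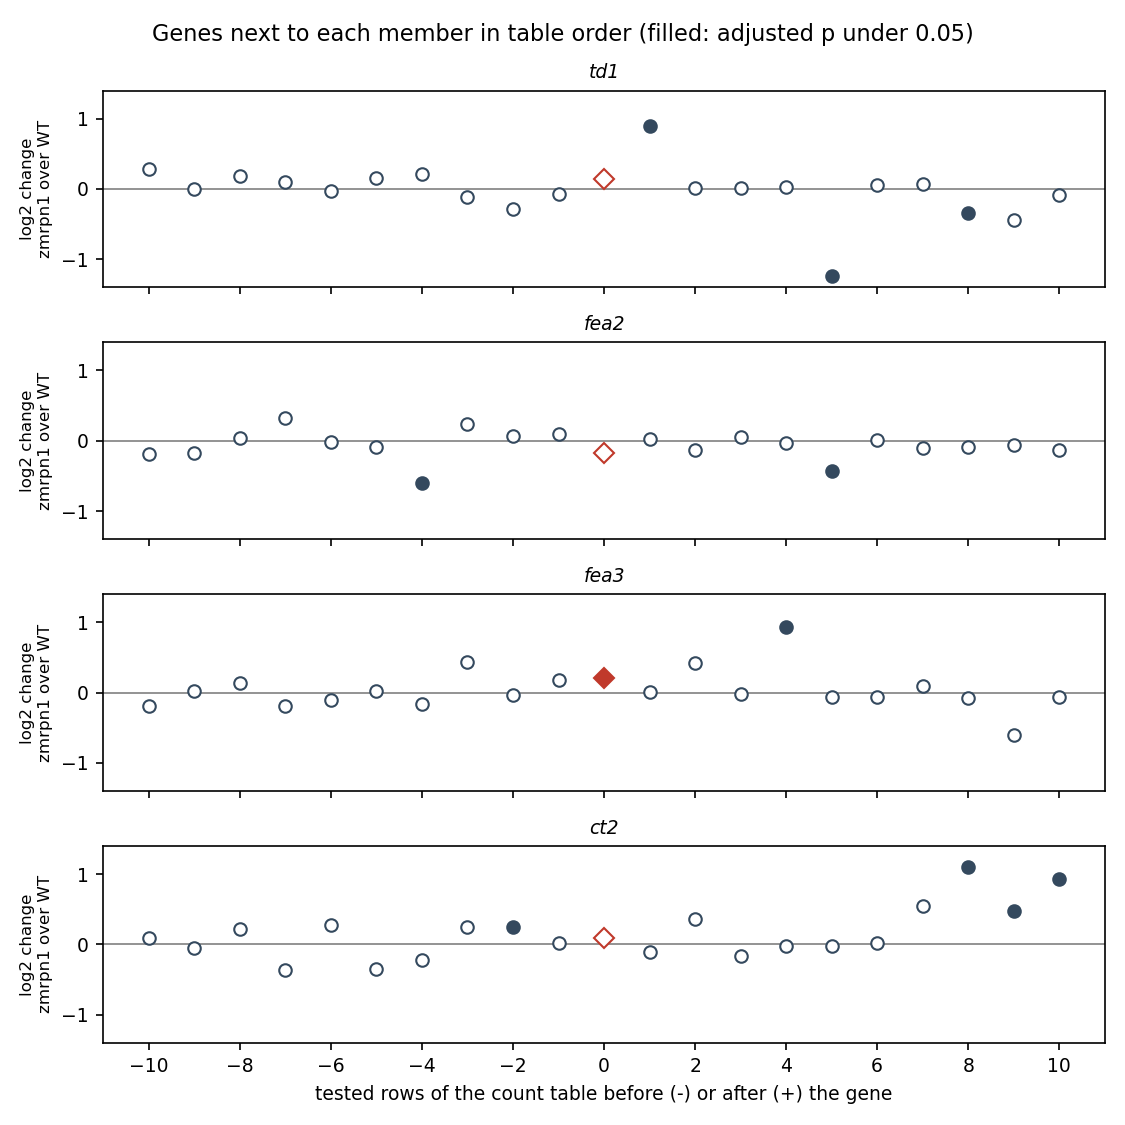
Log2 change in zmrpn1 over WT (vertical axes) of the 10 tested genes before and the 10 after each member in table order (horizontal axis), with the member in red at position 0 and genes with an adjusted p under 0.05 filled. Called neighbours number 3 for td1, 2 for fea2, 1 for fea3 and 4 for ct2.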

How the data were processed

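The deposited values are whole-number read counts per gene. Per the submitters' processing notes, the tools were DESeq2, featureCounts 1.6.4, HISAT2 2.2.1, StringTie 1.3.6 and Trimmomatic 0.39, and the build was B73 RefGen_v4. Strand setting and handling of multi-mapped reads are not given in the sources used here. Near-identical copies and overlapping genes may therefore share counts with the 4 members. Columns were assigned to samples by genotype code and replicate number. In R 4.3.3, all genes kept by filterByExpr (minimum count 10) were fitted with edgeR 4.0.16 (TMM scaling, robust quasi-likelihood F test), adjusted over all of them. Standard errors are the log2 change over the square root of F, and CPM uses TMM-scaled totals. Profiles used a prior count of 2. Libraries of a group differed by more than sampling noise (chi-square per degree of freedom 2.02 to 4.89), which does not show whether they came from separate plants. Each library was counted once. DESeq2 1.42.0, limma-voom (limma 3.58.1), other scalings and filters, a replicate block and each library left out were alternatives. The named genes were the 4 members and the nearest profile to each. Names came from a reference table for Zm-B73-REFERENCE-NAM-5.0, whose coordinates are not given because the build differs. The members and lists were chosen with earlier results of these data known. The labels give no sequencing batch.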

Additional observations from a re-analysis of the deposited data

How the results depend on the processing

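With all 6 libraries, 9 alternatives of scaling, test, filter or replicate block left the direction and the call of all 4 genes as they were: fea3 gave log2 values of 0.20 to 0.22 (adjusted p 0.00643 to 0.0236), fea2 -0.18 to -0.16 (0.0647 to 0.172), td1 0.13 to 0.15 (0.0828 to 0.267) and ct2 0.091 to 0.11 (0.33 to 0.635). Leaving out 1 library gave log2 values of 0.068 to 0.20 for td1, -0.22 to -0.14 for fea2, 0.16 to 0.25 for fea3 and 0.031 to 0.14 for ct2, and 0 to 2 members called in place of 1. The 0 came without WT replicate 2, where 9.47% of all tested genes were called on the adjusted p. In that fit 3 members had an unadjusted edgeR p under 0.05. The share of all tested genes at that level was not counted, so the 3 is not a result about the members. The 2 came without WT replicate 1 and without WT replicate 3, where 9.78% and 10.6% of all tested genes were called. The cause was not tested. A threshold of 0.01 on the adjusted p left 0 members called by edgeR with TMM scaling, DESeq2 or limma-voom. At that threshold edgeR with TMM scaling called 8.20% of all tested genes. Without adjustment 3 members had an edgeR p under 0.05, and td1, the last of them, ranked 4225 of 23477 tested genes by p. At 0.01 on the adjusted p, edgeR called fea3 with library size only (adjusted p = 0.00643), with low-count genes included (0.0066) and with the replicate block (0.00943). The share of all tested genes at 0.01 in those fits was not counted. A threshold of 0.1 gave 2 members, beside 16.0% of all tested genes. With the replicate number as a block, the log2 values were 0.14 for td1, -0.18 for fea2, 0.21 for fea3 and 0.096 for ct2. In that fit 1 member was called, beside 12.8% of all tested genes. Nothing in the labels says that the numbers pair the libraries, and over genes the deviations of libraries with the same number from their group means had correlations of -0.0374, 0.0198 and 0.0306. Scaling by library size alone gave the same nearest profile for each member.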
